A study of Homo sapiens with 12 samples.

Results

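Prostate cancer surface antigens are proteins on the outside of tumour cells that antibodies, radioligands, antibody-drug conjugates or engineered T cells are built to recognize. 8 of their genes are described here, FOLH1, STEAP1, PSCA, CD276, CEACAM5, DLL3, NECTIN4 and EPCAM, chosen by gene symbol from the 60314 named genes in the expression table of each cell line. All 8 symbols were found in both tables. 7 of the 8 passed the filter on low values in each line, which asked for 3 of 6 libraries with 10 or more normalized counts (reads divided by the size factor of the library), and CEACAM5 did not.

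The transcripts were measured by RNA sequencing in 12 libraries, 3 in each of 4 groups, from 2 prostate cancer cell lines labelled wild type. The groups were 22RV1 with 50 nM of the agent that the labels call 56 mer, an aptamer by the series title, plus 2 mM L-glutamine for 48 h, 22RV1 with 2 mM L-glutamine alone for 48 h, and the same pair of conditions in C4-2B. All 4 groups were grown in glutamine-free RPMI medium with serum to which the L-glutamine was added, so the controls carried it too, and no library analysed here received another oligonucleotide. 22RV1 was derived from a relapsed CWR22 xenograft and C4-2B from LNCaP, and both are castration-resistant lines that contain androgen receptor, so each stands for 1 tumour and neither holds stromal or immune cells. The series text calls the triplicates biological without saying what separates them, so p-values measure the spread between these libraries. Recovered reads per library numbered 8847368 to 13740386.

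Surface antigens of prostate tumours differ in what their presence depends on. FOLH1, the gene of prostate-specific membrane antigen (PSMA), and the STEAP genes are known from the luminal, androgen-responsive state of prostate epithelium, whereas DLL3 is known from neuroendocrine tumours, in which that state is lost. EPCAM, CD276 and NECTIN4 are found on many carcinomas, and CEACAM5 mainly on those of the gut and on some prostate tumours with neuroendocrine features.

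Cell type markers were read in each line, though luminal markers present in both lines cannot tell 22RV1 from C4-2B. All 7 luminal prostate markers on the list passed the filter in both lines, and their summed level was 807 to 873 RPKM (recovered reads scaled to library total and transcript length) in 22RV1 with 56-mer and 816 to 860 RPKM in 22RV1 controls. In C4-2B the same sum was 1058 to 1103 RPKM with 56-mer and 1029 to 1051 RPKM in controls. Of 5 neuroendocrine markers, 3 passed the filter in 22RV1, where INSM1 and NCAM1 did not, and 1 passed in C4-2B. Summed neuroendocrine markers were at 40.9 to 49.2 RPKM with 56-mer and 36.7 to 49.7 RPKM in controls in 22RV1. In C4-2B that sum was 0.736 to 1.16 RPKM with 56-mer and 0.125 to 1.39 RPKM in controls. Of the 3 basal markers KRT5 and TP63 were at 0 in every library of both lines. The third, KRT14, had 7, 0 and 5 reads in 22RV1 with 56-mer, against 0, 1 and 0 in controls, and 5, 0 and 4 reads in C4-2B with 56-mer, against 10, 8 and 4 in controls. The basal sum was 0 to 0.307 RPKM with 56-mer and 0 to 0.0508 RPKM in controls in 22RV1, and 0 to 0.244 RPKM with 56-mer and 0.177 to 0.548 RPKM in controls in C4-2B. Summed markers of leukocytes, endothelium and fibroblasts stayed at 4.15 to 6.05 RPKM with 56-mer and 4.03 to 5.00 RPKM in controls in 22RV1, and at 4.68 to 6.47 RPKM with 56-mer and 5.56 to 7.78 RPKM in controls in C4-2B. 1 library stood apart in each line, the first 56-mer library: its deviation from the mean of its line correlated with GC content across 12276 genes of mean above 100 at a Spearman rho of -0.583 in 22RV1, against -0.143 to 0.378 in the other 5 libraries, and with transcript length across 10457 genes at -0.334 in C4-2B, against -0.104 to 0.245 in the others. In C4-2B the rho with GC content was 0.304 and 0.318 in the second and the third 56-mer library and -0.177 in the first, against -0.209 to -0.00487 in the controls, so that trend moved with the treatment there in 2 of 3 libraries.

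RefSeq promoter windows of build GRCh38.p14, which run from 250 bases before to 50 bases after each gene's start, were matched by symbol for 4 of the 8 antigens, NECTIN4, STEAP1, CD276 and CEACAM5. The windows of STEAP1, among the most abundant antigen transcripts in both lines, and of CEACAM5, the least abundant, are printed 5′ to 3′ on the gene's strand, with CpG dinucleotides in capitals. That of STEAP1 lies at chr7:90154219-90154518 on the plus strand and that of CEACAM5 at chr19:41708376-41708675 on the plus strand.
STEAP1: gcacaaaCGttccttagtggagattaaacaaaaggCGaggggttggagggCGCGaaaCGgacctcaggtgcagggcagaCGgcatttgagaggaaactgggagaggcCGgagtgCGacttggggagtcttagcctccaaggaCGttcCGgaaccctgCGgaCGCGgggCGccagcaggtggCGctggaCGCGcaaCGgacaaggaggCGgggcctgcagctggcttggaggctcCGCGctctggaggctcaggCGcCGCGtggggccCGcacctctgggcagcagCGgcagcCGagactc
CEACAM5: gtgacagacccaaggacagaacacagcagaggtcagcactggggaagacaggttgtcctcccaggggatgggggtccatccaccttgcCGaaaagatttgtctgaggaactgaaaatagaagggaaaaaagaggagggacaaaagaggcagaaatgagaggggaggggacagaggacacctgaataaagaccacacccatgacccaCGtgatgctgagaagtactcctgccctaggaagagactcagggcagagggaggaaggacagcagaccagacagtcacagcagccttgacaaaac
The STEAP1 window held 27 CpG dinucleotides, a number that 28.2% of the 35116 windows in the RefSeq table reached, and that of CEACAM5 held 2, which 89.0% reached. Their GC contents were 66.7% and 53.3%, beside a median of 58.7% over all windows. The androgen receptor motif AGAACA, searched on both strands as AGAACA and TGTTCT, occurred 1 time in the CEACAM5 window and 1 time in that of NECTIN4, and 14.8% of all windows contain it. The GC box GGGCGG, searched on both strands as GGGCGG and CCGCCC, occurred 7 times in the first of the 2 CD276 windows, 2 times in the other and 2 times in that of NECTIN4, beside 45% of all windows with at least 1. Such letter matches describe the windows only.

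In untreated cells PSMA and STEAP1 led the antigens of both lines. Per length of the longest GENCODE 29 transcript, control levels in 22RV1 were 204 ± 7.62 RPKM for FOLH1 and 144 ± 2.80 RPKM for STEAP1 (SD, n = 3). EPCAM followed at 56.9 ± 0.231 RPKM and CD276 at 30.2 ± 0.678 RPKM in the same libraries. Far below them stood NECTIN4 at 5.82 ± 0.393 RPKM, DLL3 at 2.49 ± 1.30 RPKM and PSCA at 1.61 ± 0.692 RPKM. The ranges of DLL3 and PSCA overlapped in 22RV1, and every other pair of neighbours in that order was separated in all 3 controls. CEACAM5 came last with a mean of 0.0194 RPKM.

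C4-2B controls had the same first 4 antigens. FOLH1 stood at 185 ± 4.47 RPKM, STEAP1 at 130 ± 2.51 RPKM, EPCAM at 67.6 ± 4.04 RPKM and CD276 at 33.9 ± 1.75 RPKM (SD, n = 3). PSCA reached 28.5 ± 3.47 RPKM in C4-2B, and its range overlapped that of CD276. DLL3 at 9.0 ± 0.76 RPKM stood above NECTIN4 at 3.59 ± 1.42 RPKM, so the lower part of the order differed from 22RV1. With the median in place of the longest transcript length, FOLH1 stayed first in both lines and CD276 took place 3 in 22RV1 and place 2 in C4-2B. FOLH1 exceeded 99.2% of the tested genes of known length in 22RV1 and 98.0% of those in C4-2B, while the median tested gene had 6.28 RPKM in 22RV1 and 5.92 RPKM in C4-2B.

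**Figure D1:**
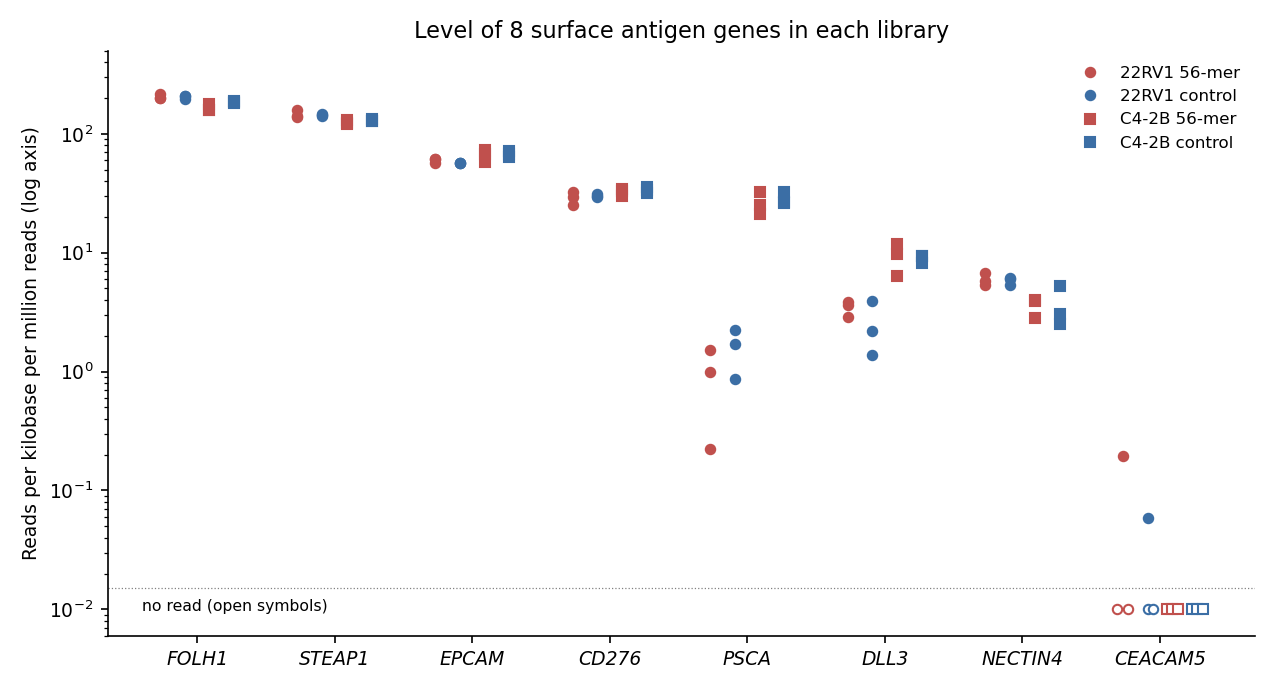
Level of each antigen in every library, in RPKM on a log axis, for 22RV1 (circles) and C4-2B (squares) with 56-mer (red) or without (blue); open symbols are libraries with no read. FOLH1 and STEAP1 stand highest in all libraries, PSCA and DLL3 separate the lines, and CEACAM5 is seen in 2 of the 22RV1 libraries alone.

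PSCA and DLL3 differed most between the untreated lines. The tables of the lines were normalized separately and the lines differ in more than these genes, so levels are given as CPM, the recovered reads scaled to the library total without regard to length, and were not tested. PSCA had 1.75, 2.28 and 0.883 CPM in 22RV1 controls, against 33.2, 27.1 and 26.9 in C4-2B controls, which made its mean 17.7 times lower in 22RV1. DLL3 had 5.10, 3.21 and 9.13 CPM in 22RV1 controls, against 18.9, 22.1 and 21.9 in C4-2B controls, and its mean was 3.61 times lower in 22RV1. Both genes were apart in all 3 controls of each line.

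The abundant antigens were much closer between the lines. FOLH1 averaged 550 ± 20.5 CPM in 22RV1 controls and 498 ± 12.1 in C4-2B controls, a ratio of 1.11 (SD, n = 3 each). STEAP1 averaged 189 in 22RV1 controls and 170 in C4-2B controls, with the same ratio of 1.11 on this scale. CD276 and EPCAM had ratios of 22RV1 over C4-2B of 0.890 and 0.841, and NECTIN4, at 20.4 ± 1.37 against 12.6 ± 4.98 CPM, one of 1.62. The 3 controls of 22RV1 and the 3 of C4-2B did not overlap for any of these 5 genes, though for NECTIN4 the lowest 22RV1 control, 18.8 CPM, was close to the highest C4-2B control, 18.2 CPM. Its ratio ran from 1.41 to 2.09 with a control left out, the highest without the third C4-2B control. Together the 8 antigens took 970 ± 22.7 CPM in 22RV1 controls and 965 ± 23.1 in C4-2B controls, of which FOLH1 alone made up 56.7% in 22RV1 and 51.6% in C4-2B.

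**Figure D2:**
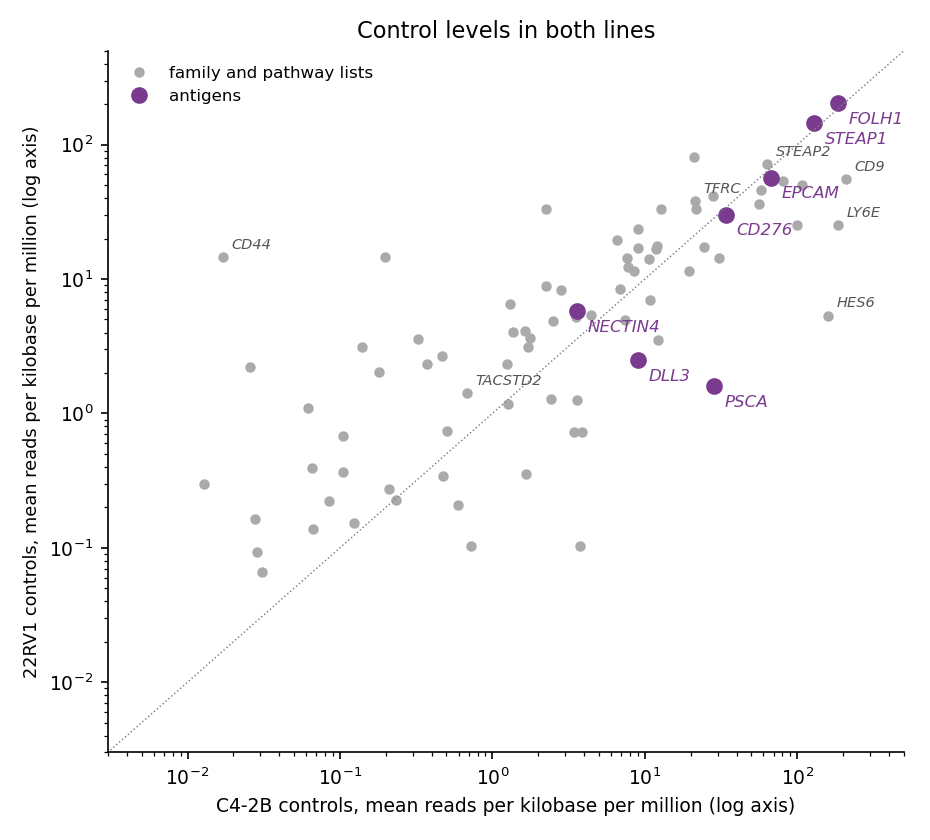
Mean control level of 7 antigens (purple) and 75 genes of their families and pathways (grey) in 22RV1 (vertical) against C4-2B (horizontal), in RPKM on log axes; the dotted line marks equal levels, and CEACAM5 and 28 family genes without a level above 0 in both lines are left out. FOLH1, STEAP1, EPCAM and CD276 lie near the line, PSCA and DLL3 well below it.

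Whether 56-mer alters the antigens was addressed within each line by limma on log2 of the normalized count plus 1, two-sided, with Benjamini-Hochberg adjustment over all genes tested. In 22RV1 0 of the 7 tested antigens passed an adjusted p of 0.05, where 2 of 20517 genes (0.00975%) did, and 1 had an unadjusted p below 0.05, where 3.91% of all genes did. In C4-2B 0 of the 7 passed, where 11 of 16657 genes (0.066%) did, and 0 had an unadjusted p below 0.05, where 8.92% of all genes did. edgeR and DESeq2 on the recovered reads gave 0 antigens past the adjusted threshold in either line and 0 with an unadjusted p below 0.05. In C4-2B DESeq2 gave no adjusted p for PSCA, DLL3 and NECTIN4, so these could not pass by that tool. 5 of the 7 mean log2 changes lay above 0 in 22RV1, where 49.4% of all genes did, and 2 of the 7 in C4-2B, where 48.3% did. The median log2 change of the 7 antigens was 0.036 in 22RV1 and -0.012 in C4-2B, beside -0.0026 and -0.011 over all genes tested in those lines. In bulk RNA of this kind, fewer cells of a type and less RNA per cell cannot be told apart.

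FOLH1 encodes PSMA, a membrane peptidase that trims glutamate from folates and from N-acetyl-aspartyl-glutamate and is the target of prostate cancer radioligands. In 22RV1 its normalized counts were 7116, 6512 and 6526 with 56-mer, against 6766, 6331 and 6684 in controls. The groups overlapped, and the log2 change was 0.026 ± 0.058 (SE; 95% interval -0.091 to 0.14; limma adjusted p = 0.9996). In C4-2B the counts were 5772, 5156 and 5139 with 56-mer, against 5822, 5968 and 5621 in controls. The second and the third 56-mer library, those with a positive GC trend, lay below every control and the first lay within the control range. FOLH1 had here the smallest unadjusted p of the antigens in C4-2B, 0.104, with a log2 change of -0.12 ± 0.070 (SE; 95% interval -0.26 to 0.026; limma adjusted p = 0.656). Without the first 56-mer library, which stood apart in that line, the log2 change was -0.17 (adjusted p = 0.181). With libraries scaled to equal totals the groups no longer overlapped, at 477, 432 and 430 CPM with 56-mer against 495, 511 and 487 in controls, yet the log2 change of -0.16 did not pass either (adjusted p = 0.501). On that scale the median log2 change of all C4-2B genes was -0.052, beside -0.011 on normalized counts. The share of all genes without overlap at equal totals was not determined. With a lowess correction of each library for GC content and transcript length the log2 change of FOLH1 in C4-2B was -0.098 (adjusted p = 0.695).

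STEAP1 is a multi-pass membrane protein of a family of metalloreductases and a target of antibody and T cell engager trials in prostate cancer. In 22RV1 it had normalized counts of 2552, 2201 and 2217 with 56-mer, against 2292, 2287 and 2206 in controls, a log2 change of 0.036 ± 0.075 (SE). In C4-2B it had 1957, 1895 and 2056 with 56-mer, against 1967, 2031 and 1958 in controls, a log2 change of -0.012 ± 0.084 (SE). The groups overlapped in both lines. The 95% intervals, -0.12 to 0.19 in 22RV1 and -0.19 to 0.16 in C4-2B, correspond to folds of 0.923 to 1.14 and 0.879 to 1.12.

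PSCA, a small protein of the Ly6 family held on the membrane by a lipid anchor, was near the limit of detection in 22RV1. There it had 12.5, 2.73 and 18.6 normalized counts with 56-mer, from 14, 2 and 21 reads, against 21.0, 27.4 and 10.6 in controls, from 21, 27 and 12 reads. Both groups were scattered and overlapped, and the log2 change of -0.96 ± 0.66 had a 95% interval of -2.29 to 0.38 (limma adjusted p = 0.9996). With a library left out it ran from -1.45, without the third 56-mer library, to -0.25, without the second, the shallowest of the 12. With a pseudocount of 0.1 it was -1.07, and with one of 10 it was -0.51. In C4-2B PSCA had 263, 305 and 396 normalized counts with 56-mer, against 390, 317 and 311 in controls. These groups overlapped too, with a log2 change of -0.092 ± 0.17 (SE; adjusted p = 0.920).

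CEACAM5, or CEA, is another lipid-anchored antigen, of the immunoglobulin superfamily, and is targeted in neuroendocrine prostate cancer. It had 0, 5 and 0 reads in 22RV1 with 56-mer, against 2, 0 and 0 in 22RV1 controls, and 0 reads in all 6 libraries of C4-2B. The upper limit that a count of 0 allows, 3 reads, corresponds to 0.240 to 0.244 CPM in C4-2B with 56-mer and 0.220 to 0.293 in C4-2B controls, for counting error only. A difference was not detectable at this depth. Its close relative CEACAM6, with which short reads could be shared, had 0.892, 17.8 and 3.54 normalized counts in 22RV1 with 56-mer, against 17.0, 9.14 and 0 in controls, and 0 in all C4-2B libraries.

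CD276, also called B7-H3, is a member of the B7 family of immune checkpoint ligands. In 22RV1 its normalized counts were 1079, 1347 and 1218 with 56-mer, against 1285, 1237 and 1238 in controls. In C4-2B they were 1399, 1234 and 1416 with 56-mer, against 1307, 1442 and 1362 in controls. The 56-mer libraries spread more widely than the controls in both lines and enclosed or overlapped them. Its log2 changes were -0.051 ± 0.090 in 22RV1 and -0.024 ± 0.097 in C4-2B (SE; limma adjusted p = 0.9996 and 0.966), and the 95% interval was -0.23 to 0.13 in 22RV1 and -0.22 to 0.18 in C4-2B.

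DLL3 is an inhibitory Notch ligand found on neuroendocrine tumours and the target of T cell engagers. In 22RV1 it had 111, 102 and 80.4 normalized counts with 56-mer, against 61.0, 38.6 and 109 in controls. 2 controls lay below every 56-mer library and the third lay within their range, so the groups overlapped. It was the antigen with an unadjusted p below 0.05 in 22RV1 (0.0393), with a log2 change of 0.60 ± 0.28 (SE; 95% interval 0.031 to 1.17), and it was not past the threshold once adjusted over all genes (limma adjusted p = 0.9996). The value depended on single controls, being 0.25 without the second control and 0.98 without the third. Without the first 56-mer library it was 0.51. The unadjusted p was 0.0923 by edgeR and 0.145 by DESeq2 on the recovered reads. In C4-2B DLL3 had 275, 176 and 332 normalized counts with 56-mer, against 223, 258 and 253 in controls, a log2 change of 0.049 ± 0.21 (SE; limma adjusted p = 0.966) in which the 56-mer libraries lay on both sides of the controls.

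NECTIN4 is a cell adhesion molecule of the immunoglobulin superfamily and the target of enfortumab vedotin. In 22RV1 its normalized counts were 228, 284 and 245 with 56-mer, against 225, 252 and 255 in controls. In C4-2B they were 167, 118 and 167 with 56-mer, against 103, 125 and 210 in controls. Groups overlapped in both lines, and the third C4-2B control was above all other libraries of that line. The log2 changes were 0.046 ± 0.15 in 22RV1 and 0.092 ± 0.26 in C4-2B (SE; limma adjusted p = 0.9996 and 0.950).

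EPCAM is an epithelial adhesion molecule used to capture circulating tumour cells. In 22RV1 it had 1309, 1278 and 1176.3 normalized counts with 56-mer, against 1175.9, 1172 and 1175 in controls. It was the antigen of the 7 whose groups did not overlap, where 9.03% of all genes tested in 22RV1 did not, and the lowest 56-mer library was level with the highest control. On the scale of equal totals the groups overlapped, at 107, 106 and 98.0 CPM with 56-mer against 98.2, 97.6 and 98.3 in controls. The log2 change was 0.093 ± 0.087 (SE; 95% interval -0.081 to 0.27; limma adjusted p = 0.9996). In C4-2B EPCAM had 1522, 1382 and 1185 normalized counts with 56-mer, against 1370, 1443 and 1265 in controls, with a log2 change of -0.0017 ± 0.10 (SE) and 56-mer libraries on both sides of the controls. In C4-2B 0 of the 7 antigens had groups without overlap, where 14.7% of all genes did.

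**Figure D3:**
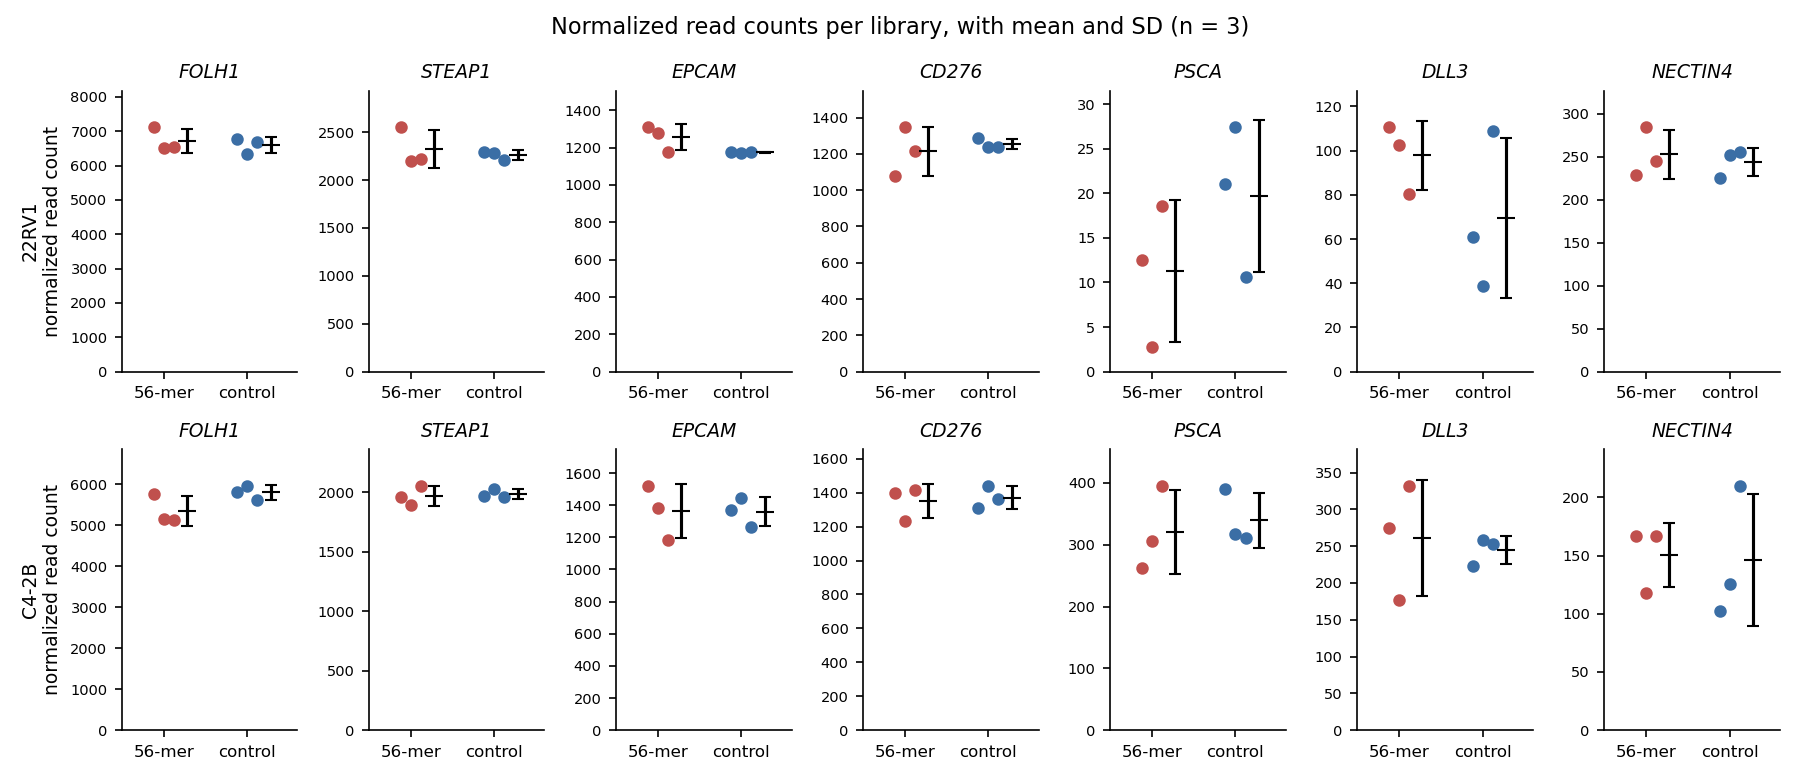
Normalized read counts of the 7 tested antigens in each library (points), with mean and SD (bars, n = 3), for 22RV1 (top) and C4-2B (bottom), 56-mer left of control. The groups overlap in every panel but that of EPCAM in 22RV1, where the lowest 56-mer value of 1176.3 lies just above the highest control value of 1175.9.

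Differences between the lines in the response to 56-mer were tested as 22RV1 minus C4-2B in 1 limma fit of the 12 libraries. 0 of the 7 antigens and 0 of 15527 genes (0%) passed an adjusted p of 0.05, and 0 antigens had an unadjusted p below 0.05, where 7.9% of all genes did. edgeR and DESeq2 gave 0 antigens as well, though DESeq2 gave no adjusted p for PSCA, DLL3 and NECTIN4. FOLH1, whose mean with 56-mer was above the control mean in 22RV1 and below it in C4-2B, had a difference of log2 changes of 0.14 ± 0.089 (SE; 95% interval -0.040 to 0.33; limma adjusted p = 0.705). DLL3 had a difference of 0.55 ± 0.42 (95% interval -0.33 to 1.44) and PSCA one of -0.87 ± 0.67 (95% interval -2.29 to 0.55). With a library left out that of DLL3 ran from 0.20, without the second 22RV1 control, to 0.94, without the third. That of PSCA ran from -1.35, without the third 22RV1 56-mer library, to -0.16, without the second, and was -0.43 with a pseudocount of 10. Of the 7 differences 4 lay above 0, where 51.8% of all genes did, and those of the remaining 4 antigens lay between -0.046 for NECTIN4 and 0.095 for EPCAM. This fit compares changes within each table, so the separate normalization of the lines does not enter it.

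**Figure D4:**
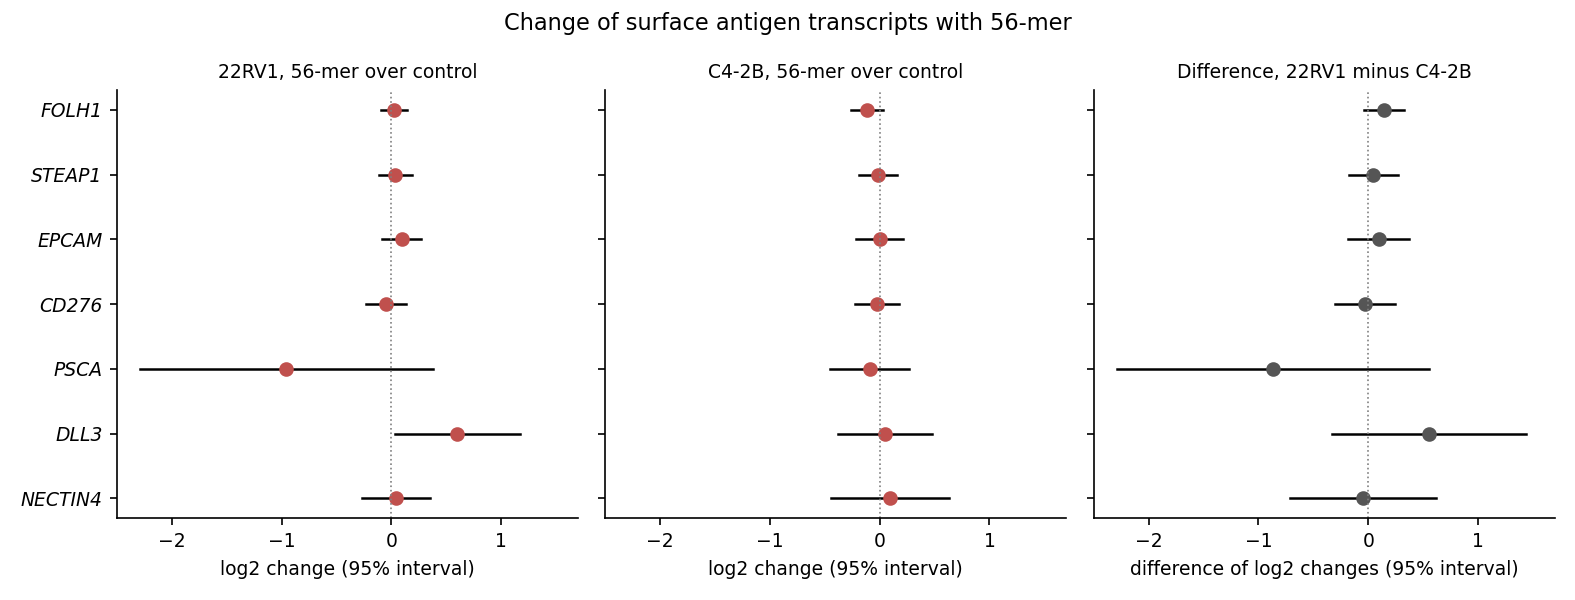
Log2 change with 56-mer of the 7 tested antigens in 22RV1 and C4-2B, and the difference of these changes, with 95% intervals (lines). Intervals include 0 in each panel except for DLL3 in 22RV1 (0.031 to 1.17). They are widest for PSCA, in the difference (-2.29 to 0.55) and next in 22RV1 (-2.29 to 0.38).

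The 8 genes summed to 980 ± 28.9 CPM in 22RV1 with 56-mer and 970 ± 22.7 in 22RV1 controls, and to 897 ± 38.9 in C4-2B with 56-mer and 965 ± 23.1 in C4-2B controls (SD, n = 3 each). The sums overlapped in 22RV1. In C4-2B they were apart on this scale of equal totals, at 860 to 938 with 56-mer against 951 to 991 in controls. This separation was not tested, and sums of normalized counts overlapped in C4-2B. The median log2 change of all C4-2B genes was -0.052 at equal totals and -0.011 on normalized counts. On normalized counts 14.7% of all genes tested in C4-2B had groups without overlap, and the share at equal totals was not determined. FOLH1 made up 56.6% of the summed CPM in 22RV1 with 56-mer and 56.7% in 22RV1 controls. In C4-2B it made up 49.7% with 56-mer and 51.6% in controls. In the authors' deposited table the log2 fold changes of the antigens ran from -0.12 to 0.094 in C4-2B, with an adjusted p of 1 for each, and from -0.77 for PSCA to 1.74 for CEACAM5 in 22RV1, all with an adjusted p of 0.999995.

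Near copies of the leading antigens were counted apart from them, and reads may be divided between such pairs in ways that cannot be told from the tables. FOLH1B, a PSMA-like gene, had 59.8, 62.9 and 76.9 normalized counts in 22RV1 with 56-mer, against 53.0, 78.2 and 73.0 in controls. STEAP1B had 16.1, 16.4 and 17.7 in 22RV1 with 56-mer, against 7.0, 0 and 12.3 in controls, so its groups did not overlap there, and it did not pass (limma adjusted p = 0.9996). In C4-2B both genes overlapped between groups, with 29.4, 4.77 and 7.79 for FOLH1B with 56-mer, against 10.7, 12.5 and 11.9 in controls. Both copies were small beside the counts of FOLH1 and STEAP1.

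Of 140 genes in the families and pathways of the antigens, 99 were tested in 22RV1 and 82 in C4-2B, and 0 passed the adjusted threshold by limma in either line or in the difference. An unadjusted p below 0.05 was found in 22RV1 for 8 of the 99 by limma, 6 by edgeR and 6 by DESeq2, where 3.91%, 3.72% and 3.23% of all genes tested had one. In C4-2B it was found for 14 of the 82 by each tool, where 8.92% of all genes had one by limma, 8.06% by edgeR and 7.91% by DESeq2. For the difference it was found for 11 of 77 by limma, where 7.9% of all genes had one. By DESeq2, 1 gene of the lists passed in C4-2B, FOXA1, where 42 of all 16657 genes tested did. By edgeR 0 did, and 0 of all genes. Among the relatives of PSMA, 5 of 6 genes were tested in each line, led by the transferrin receptor TFRC, which shares the fold of PSMA, at a control level of 37.8 RPKM in 22RV1 and 21.4 RPKM in C4-2B. Among the other STEAP genes the metalloreductase STEAP2 led with 71.8 RPKM in 22RV1 controls and 63.5 RPKM in C4-2B controls. Its log2 change with 56-mer was 0.026 ± 0.065 in 22RV1 and -0.11 ± 0.067 in C4-2B (SE). All 4 tested STEAP genes of 22RV1 had a mean change above 0, with a median of 0.18, and all 3 of C4-2B one below 0, with a median of -0.11. The 4 of 22RV1 include STEAP1B, which met the filter there by its 56-mer libraries. Of all genes tested 49.4% lay above 0 in 22RV1 and 48.3% in C4-2B, with medians of -0.0026 and -0.011. The counts were the same with equal totals and quantile normalization, while with the GC and length correction 3 of 4 lay above 0 in 22RV1 and 1 of 3 in C4-2B. Of 18 genes of the Ly6 and uPAR family, 8 were tested in 22RV1 and 7 in C4-2B. Its leading member LY6E had control levels of 25.2 RPKM in 22RV1 and 186 RPKM in C4-2B, and a log2 change of 0.18 ± 0.079 in C4-2B (SE; limma adjusted p = 0.510). In 22RV1 the log2 change of LY6E was -0.072 ± 0.13 (SE; limma adjusted p = 0.9996).

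Few other genes of the B7 family of CD276 and of the CEACAM family of CEACAM5 passed the filter. Of 9 further B7 genes, 4 were tested in 22RV1 and 2 in C4-2B, with NCR3LG1, the ligand of the natural killer receptor NKp30, highest at 6.55 RPKM in 22RV1 controls and 1.30 RPKM in C4-2B controls. Its log2 change was 0.27 ± 0.11 in 22RV1 and -0.35 ± 0.29 in C4-2B (SE; limma adjusted p = 0.9996 and 0.758). Of 11 further CEACAM genes, 2 were tested in 22RV1 and 1 in C4-2B, and 7 were at 0 in all C4-2B libraries. CEACAM1, an adhesion and inhibitory receptor, led in 22RV1 controls at 3.12 RPKM.

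Notch genes, the pathway that DLL3 acts on, were tested for 21 of 25 in 22RV1 and 19 of 25 in C4-2B. Their median log2 change was 0.014 in 22RV1, with 13 above 0, and -0.15 in C4-2B, with 3 above 0, beside -0.0026 and -0.011 over all genes. With equal totals 9 of the 21 lay above 0 in 22RV1 and 2 of the 19 in C4-2B, with medians of -0.0023 and -0.19, on a scale where the median of all genes was -0.019 in 22RV1 and -0.052 in C4-2B. The Notch target and feedback inhibitor NRARP had control levels of 33.3 RPKM in 22RV1 and 21.8 RPKM in C4-2B. Its log2 change was 0.013 ± 0.11 in 22RV1 and -0.26 ± 0.14 in C4-2B (SE; limma adjusted p = 0.9996 and 0.607). The receptor NOTCH3 had a log2 change of -0.070 ± 0.075 in 22RV1 and of -0.23 ± 0.14 in C4-2B (SE), and passed in neither. The ligand JAG2 led the ligands of C4-2B at 30.8 RPKM in controls, with a log2 change of 0.014 ± 0.14 (SE).

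Adhesion partners of NECTIN4 and EPCAM were tested next. Of 12 nectins, nectin-like molecules and receptors, 9 were tested in 22RV1, with a median log2 change of 0.086, and 6 in C4-2B, with a median of -0.21. PVR, the poliovirus receptor, had 33.5 RPKM in 22RV1 controls and 12.7 RPKM in C4-2B controls, and a log2 change of 0.086 ± 0.084 in 22RV1 and -0.21 ± 0.14 in C4-2B (SE). Of 18 partners and processing enzymes of EPCAM, 18 were tested in 22RV1 and 14 in C4-2B, with medians of 0.038 and -0.022. CD9, a tetraspanin that associates with EPCAM, had 3986, 3313 and 3473 normalized counts in C4-2B with 56-mer, against 4326, 4234 and 4160 in controls. Its groups did not overlap, as was so for 14.7% of all genes tested in C4-2B. The log2 change of -0.24 ± 0.078 (SE; unadjusted p = 0.00436) missed the threshold after adjustment (limma adjusted p = 0.392). In 22RV1 the log2 change of CD9 was -0.068 ± 0.090 (SE; limma adjusted p = 0.9996). CLDN7, a claudin that binds EPCAM, had a log2 change of -0.13 ± 0.091 in C4-2B (SE; limma adjusted p = 0.698).

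Further antigens targeted in carcinomas and regulators of the prostate lineage were compared in the same way. Of 25 such antigens, 18 were tested in 22RV1 and 17 in C4-2B, with median log2 changes of 0.050 and -0.056. The zinc transporter SLC39A6 led in 22RV1 controls at 104 RPKM and the choline transporter-like protein SLC44A4 in C4-2B controls at 78.2 RPKM. The complement regulator CD46 had 1016, 776 and 835 normalized counts in C4-2B with 56-mer, against 1154, 1182 and 1135 in controls, a log2 change of -0.41 ± 0.11 (SE; unadjusted p = 0.00116; limma adjusted p = 0.291). In 22RV1 the log2 change of CD46 was 0.073 ± 0.062 (SE; limma adjusted p = 0.9996). Of 13 regulators, 11 were tested in 22RV1 and 9 in C4-2B. The pioneer factor FOXA1 had 2868, 2609 and 2773 normalized counts in C4-2B with 56-mer, against 3560, 3410 and 3505 in controls. The groups were apart, as were those of 14.7% of all genes tested in C4-2B. The log2 change of -0.35 ± 0.076 (SE; unadjusted p = 0.00013) missed the threshold after adjustment (limma adjusted p = 0.120). In 22RV1 the log2 change of FOXA1 was -0.028 ± 0.062 (SE; limma adjusted p = 0.9996). The adjusted p of FOXA1 in C4-2B was 0.00425 by DESeq2 and 0.349 by edgeR. HOXB13, a homeobox factor of prostate epithelium, had a log2 change of -0.015 ± 0.071 in 22RV1 and 0.018 ± 0.072 in C4-2B (SE).

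For each antigen the gene whose pattern over the 12 libraries was most like it was found by Pearson correlation of log2 values centred on the mean of each line, among 9922 or 9923 genes with a mean of at least 100 in both lines. These values describe libraries that share depth and base composition trends and carry no test. FOLH1 was closest to ZHX1 at r = 0.955, EPCAM to YTHDF1 at 0.956, CD276 to CRB3 at 0.922 and DLL3 to GTPBP4 at 0.917. NECTIN4 was closest to CABLES2 at 0.914, with 0.361 within 22RV1, STEAP1 to ZC2HC1C at 0.893, and PSCA to NUB1 at 0.872, with 0.0448 within C4-2B.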

How the data were processed

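Total RNA was measured in 12 libraries, 3 per group. The authors deposited, per line, a normalized table whose values are a signal: read counts divided by 1 size factor per library, as 100% of the values were whole multiples of 1 step (tolerance 0.01). Each line was normalized separately. The comparison tables that the authors deposited hold, per the file headers, log2 fold changes, p-values, a mean signal and a score. DESeq is named in the submitters' processing notes; which aligner, counting tool and build were used is not given in the sources used here.

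A gene was tested if 3 or more of its 6 normalized counts reached 10, with limma 3.58.1 (R 4.3.3; trend, robust) on log2 of the value plus 1, so fold changes of low genes are understated. edgeR 4.0.16 and DESeq2 1.42.0 were run on the recovered reads. RPKM used recovered reads and the longest GENCODE 29 transcript. Scripts were tested on simulated data.

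Antigens and the 14 lists (160 genes) were chosen with earlier results of these data known. Named were all antigens, list genes past the threshold, up to 2 genes of each list with the highest control RPKM per line, and the closest pattern of each antigen. FOLH1B, STEAP1B and CEACAM6 were added for similarity to antigens.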

Additional observations from a re-analysis of the deposited data

How the results depend on the processing

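No paired analysis was possible because replicate numbers follow the order of the records and pair nothing. The alternatives were equal totals, quantile normalization, a filter at a mean of 50 or none, pseudocounts of 10 and 0.1, edgeR, DESeq2, a lowess correction for GC content and length (span 0.3), and leaving out each library. Under each of them 0 antigens passed in 22RV1, in C4-2B and in the difference. PSCA has no value in 22RV1 or in the difference under the filter at a mean of 50. By DESeq2, PSCA, DLL3 and NECTIN4 have no adjusted p in C4-2B or in the difference.

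The number of all genes past the threshold moved more. In 22RV1, main count 2, it was 7 with the GC and length correction and 11 with no filter, and 0 to 11 with a library left out. In C4-2B, main count 11, it was 42 by DESeq2, 20 with the GC and length correction, 0 by edgeR and 34 with no filter, and 0 to 81 with a library left out. For the difference, main count 0, it was 4 by DESeq2, 5 with the GC and length correction, 1 by edgeR, 2 with no filter and 1 with quantile normalization, and 0 to 13 with a library left out. The most came without the first C4-2B 56-mer library, with 81 in C4-2B and 13 in the difference. The cause was not tested.

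Values near 0 changed sign without passing. In C4-2B the log2 change of EPCAM was 0.0031 by DESeq2 and 0.0069 by edgeR, and that of DLL3 was -0.049 with the GC and length correction. The difference between lines was 0.039 for CD276 with the GC and length correction and 0.011 for NECTIN4 by edgeR. With a library left out, log2 changes in 22RV1 ran from -0.016 to 0.048 for FOLH1, -0.034 to 0.073 for STEAP1, -0.13 to 0.032 for CD276 and -0.043 to 0.11 for NECTIN4. In C4-2B they ran from -0.044 to 0.015 for STEAP1, -0.25 to 0.042 for PSCA, -0.060 to 0.040 for CD276, -0.15 to 0.31 for DLL3, -0.13 to 0.39 for NECTIN4 and -0.085 to 0.095 for EPCAM. Differences ran from -0.021 to 0.085 for STEAP1, -0.10 to 0.055 for CD276, -0.34 to 0.17 for NECTIN4 and -0.0024 to 0.18 for EPCAM.

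By RPKM on the median transcript length, CD276 took place 3 and EPCAM place 4 in 22RV1, and CD276 place 2, STEAP1 place 3 and EPCAM place 4 in C4-2B. With a 22RV1 control left out, PSCA took places 6 to 7 and DLL3 places 6 to 7. On the authors' scale the ratio of 22RV1 over C4-2B controls was 1.14 for FOLH1 and 1.14 for STEAP1, and with a control left out it was 0.198 to 0.339 for DLL3 and 0.0454 to 0.0694 for PSCA. Depth limits PSCA in 22RV1 and CEACAM5 in both lines.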

Other observations

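Some list genes were far apart between the untreated lines, whose levels were not tested. Summed neuroendocrine markers reached 36.7 to 49.7 RPKM in 22RV1 controls and 0.125 to 1.39 RPKM in C4-2B controls. SYP and CHGA had the highest levels of the 5 markers in 22RV1, while INSM1 and NCAM1 did not pass the filter there. SYP, which encodes the synaptic vesicle protein synaptophysin, had a control level of 24.8 ± 3.53 RPKM in 22RV1 and 0.858 ± 0.677 RPKM in C4-2B, and CHGA, for chromogranin A, one of 19.0 ± 3.51 RPKM in 22RV1, while DLL3 was lower in 22RV1. HES6, a bHLH factor of the Notch list, had 5.35 ± 1.54 RPKM in 22RV1 controls and 160 ± 13.6 RPKM in C4-2B controls. CD44 and L1CAM were singled out after their values were seen. CD44, a hyaluronan receptor, had 14.5 ± 0.733 RPKM in 22RV1 controls and 0.0171 RPKM in C4-2B controls. L1CAM, a neural adhesion molecule, had 14.7, 14.3 and 11.7 normalized counts in C4-2B with 56-mer, against 47.1, 63.9 and 30.5 in C4-2B controls, a log2 change of -1.67 ± 0.53 that missed the threshold after adjustment (limma adjusted p = 0.392).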
